A study of Rattus norvegicus with 9 samples.

Results

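The hypoxia-inducible factor (HIF) pathway was followed through 10 of its genes in rat tibia: the factor subunits Hif1a and Epas1, the oxygen-sensing prolyl hydroxylases Egln1 and Egln3, and the targets Vegfa, Ddit4, Ndrg1, Angptl4, Bnip3 and Adm. They were chosen by symbol, and all 10 were found among the 23768 genes of the raw count table and passed the filter on low counts. Total RNA of tibiae from male Sprague Dawley rats was sequenced in 3 groups of 3 libraries, Model (replicates 1, 2 and 5), GelMA (2, 3 and 4) and PMLGH (2, 3 and 4), in a study whose title names a peptide that imitates lysyl oxidase and bone healing in diabetes. GelMA commonly stands for gelatin methacryloyl, from which light-cured hydrogels are made. The labels used here leave PMLGH unexpanded, and do not tell what was done to the Model group, whether the other groups share it, the age of the rats, the time of sampling, or whether each replicate is a separate animal. The p-values measure the spread between these libraries, which may be technical in part.

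Cells make the HIF alpha subunits at all times. In normal oxygen, EGLN enzymes hydroxylate them, the VHL protein then binds them and they are destroyed, so that the level of the message says nothing of how much protein is stable. When oxygen is low the subunits pair with ARNT and bind short DNA elements near genes of glycolysis, vessel growth and mitophagy, Egln3 among them, which forms a feedback loop. In bone, HIF in osteoblast-lineage cells is known to couple vessel growth to bone formation, largely through VEGF, and Hif1a is also an inflammation-induced gene in macrophages, whereas Epas1 is best known from endothelium.

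Total counts per library ran from 34571478 to 37166383, and the counts of the 10 genes from 119 to 5402 per library. Levels below are CPM, counts scaled to library totals adjusted by TMM, as mean ± SD over n = 3, and levels of different genes are compared only by the deposited FPKM, which are scaled to gene length. Differences are log2 fold changes ± an approximate SE from edgeR's quasi-likelihood test on all 9 libraries. A gene passed at a Benjamini-Hochberg adjusted p under 0.05 over the 16816 genes tested. For the labelled tissue, the 14 bone and connective tissue marker genes, of which Col1a1 was the most abundant at 9730 CPM in Model, took 1.58% to 1.96% of the counts in Model, 3.31% to 3.78% in GelMA and 3.66% to 4.29% in PMLGH, and none was at 0. Of these, 13 rose in PMLGH and 14 in GelMA against Model, beside 15.7% and 12.7% of all genes tested. In PMLGH against GelMA 3 rose and 1 fell, beside 1.8% and 1.64% of all genes. Without Model 2, 12 rose in PMLGH and 13 in GelMA against Model, and 4 rose and 2 fell in PMLGH against GelMA. Model 2 stood apart within its group (its counts differed from Model 1 and Model 5 with a chi-square that averaged 33 and 27.7 over genes, where those libraries gave 15.7 between themselves), and the calls of the 10 genes and the counts of the lists that change without it are given both ways. The list counts without Model 2 were added after the data were seen. Calls grew over all genes too when Model 2 was left out, with 17174 genes tested. In PMLGH against Model 2873 were higher and 2795 lower, instead of 2637 and 1994. In GelMA against Model 2586 were higher and 2468 lower, instead of 2143 and 1661. In PMLGH against GelMA 586 were higher and 464 lower, instead of 303 and 275.

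Averaged over the 9 libraries, Ndrg1 was the most abundant of the 10 genes at 27.1 FPKM, followed by Hif1a at 25.4, Ddit4 at 25 and Epas1 at 23.3 FPKM. Vegfa reached 16.2, Angptl4 15.2 and Bnip3 14.8 FPKM. The hydroxylases were lower, with 9.1 FPKM for Egln1 and 5.53 for Egln3, and Adm was lowest with 3.15 FPKM. Among all genes tested, Ndrg1 lay at percentile 85.5 of mean FPKM and Adm at percentile 42.3. The order turned with the group: the highest mean was that of Ddit4 in Model (32.3 FPKM, beside 22 for Ndrg1 and 18.2 for Hif1a), of Ndrg1 in GelMA (31.9 FPKM, beside 16.7 for Ddit4) and of Hif1a in PMLGH (33 FPKM, beside 27.4 for Ndrg1). These figures depend on the gene lengths used by the authors.

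Against Model, the PMLGH libraries held more message of 5 of the 10 genes (Hif1a, Epas1, Vegfa, Ndrg1 and Angptl4) and less of 1 (Ddit4), and 4 did not pass. Of all genes tested, 27.5% passed in this comparison, 15.7% higher and 11.9% lower. In GelMA against Model, 4 genes were higher (Hif1a, Epas1, Vegfa and Ndrg1), Ddit4 was lower and 5 did not pass, where 22.6% of all genes passed, 12.7% higher and 9.88% lower. PMLGH against GelMA gave 3 genes that were higher (Hif1a, Ddit4 and Angptl4) and none lower in edgeR, where 3.44% of all genes passed, 1.8% higher and 1.64% lower. At an unadjusted p under 0.05, 2 genes were lower there (Ndrg1 and Egln3), and DESeq2 called 1 of them, Ndrg1. The share of all genes at an unadjusted p under 0.05 is not given, here or for the lists below. Counts at that looser threshold therefore have no background, and the shares above do not serve as one. The median log2 fold change of the 10 genes was 0.29, 0.20 and 0.06 in these comparisons, beside 0.02, 0.03 and 0.00 for all genes tested. No difference reached 2-fold, and only Ddit4 in GelMA came near it. The first 2 comparisons share the Model libraries.

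**Figure D1:**
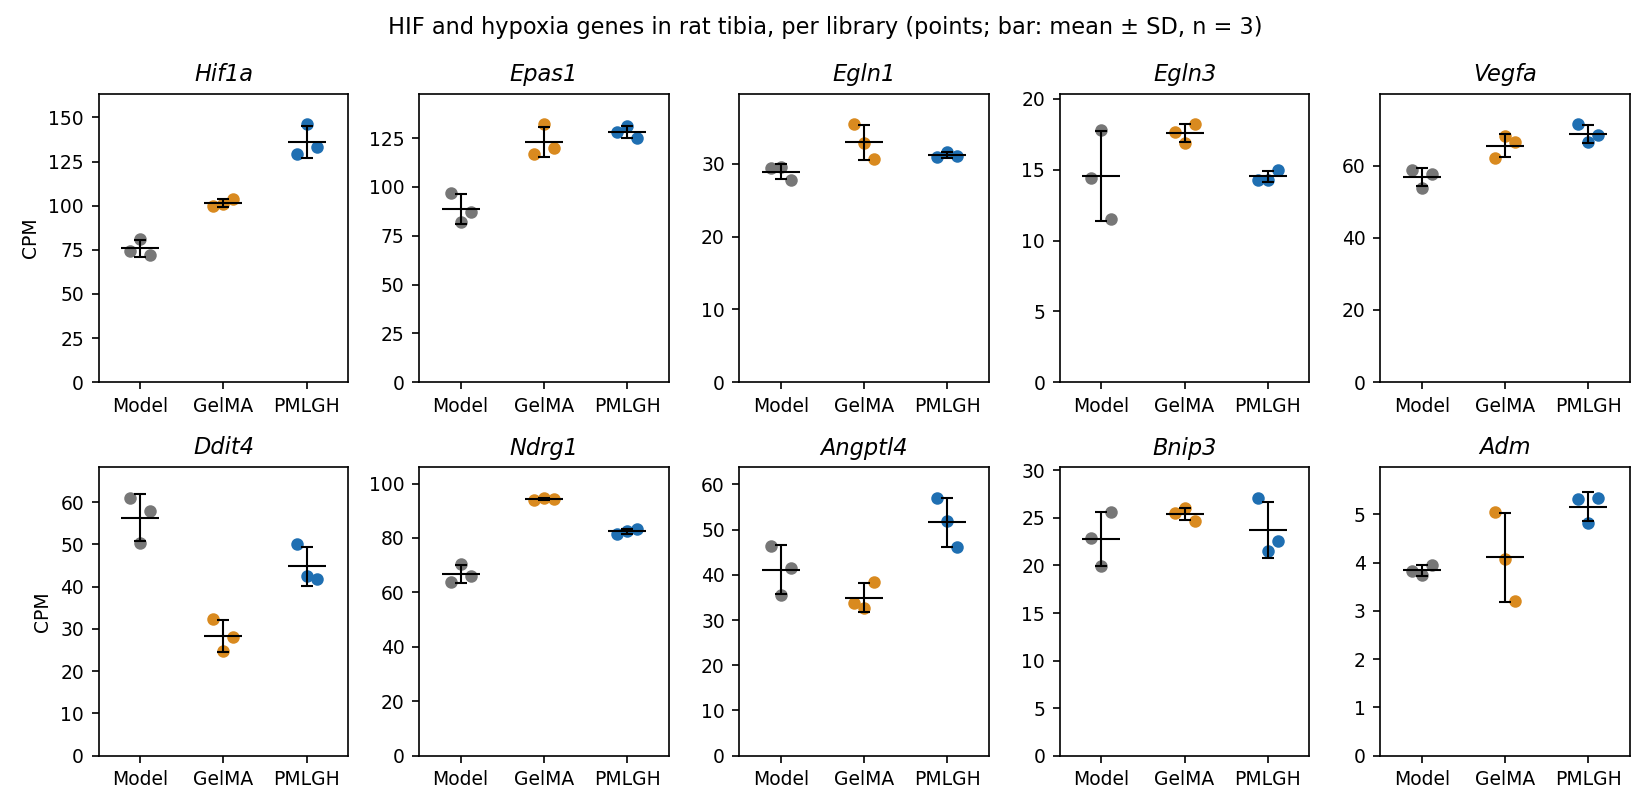
CPM of the 10 genes in each library (vertical axes, starting at 0) by group, with points for libraries and bars for mean ± SD (n = 3). Hif1a climbs from Model (72 to 81 CPM) through GelMA (99.6 to 104) to PMLGH (129 to 146), Epas1 is alike in GelMA and PMLGH, and Ddit4 is lowest in GelMA (24.8 to 32.4 CPM).

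HIF binds DNA at a core that reads ACGTG or GCGTG, and the promoters of the 10 genes were searched for it, since these genes differ between the groups in direction and size. RefSeq windows (build GRCr8) were at hand for 9 of the 10 genes, and the 250 bases before the annotated start were read on both strands. The core was found in 5 of 9 (55.6%), and 52% of the windows of 12519 tested genes hold it. The stretches around the matches are given 5′ to 3′ on the gene's strand with each core in capitals; a core on the opposite strand reads CACGT or CACGC, and CACGTG holds a core on each strand. Positions count back from the start of transcription.
Hif1a, chr6:98359649-98359758, plus strand, -249 to -140: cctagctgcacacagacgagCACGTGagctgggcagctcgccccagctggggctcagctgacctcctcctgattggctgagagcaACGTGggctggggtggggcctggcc
Egln1, chr19:69804713-69804757, minus strand, -76 to -32: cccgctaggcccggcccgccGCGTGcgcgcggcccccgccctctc
Ddit4, chr20:28437079-28437195, minus strand, -158 to -42: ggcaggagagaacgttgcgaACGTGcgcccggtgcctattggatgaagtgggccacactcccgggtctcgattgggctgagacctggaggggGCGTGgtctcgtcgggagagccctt
Angptl4, chr7:15258887-15258931, minus strand, -250 to -206: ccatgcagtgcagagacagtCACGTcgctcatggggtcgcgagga
Bnip3, chr1:203155028-203155090, minus strand, -128 to -66: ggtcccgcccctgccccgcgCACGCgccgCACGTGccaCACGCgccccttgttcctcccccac

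Bnip3 holds 4 cores between positions -108 and -86, counting both strands of CACGTG, and did not pass in any comparison. Ddit4 holds 2 and was lower than Model in both other groups. A match is a run of letters and not a measured binding site. Hif1a holds 3 cores, counting both strands of CACGTG, and Egln1 and Angptl4 hold 1 each. In the windows of Epas1, Egln3, Vegfa and Adm these letters do not occur, which says nothing of elements elsewhere.

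The alpha subunits come first. Hif1a, the broadly expressed oxygen-regulated subunit, stood at 74.4, 81 and 72 CPM in Model 1, 2 and 5, at 99.6, 101 and 104 CPM in GelMA 2, 3 and 4, and at 129, 146 and 133 CPM in PMLGH 2, 3 and 4. No group overlapped another. The means were 75.8 ± 4.7, 101 ± 2.5 and 136 ± 8.6 CPM. Hif1a rose by 0.84 ± 0.06 in PMLGH against Model (edgeR adjusted p = 2.0e-07), a fold of 1.79 with a 95% interval of 1.63 to 1.97. It rose by 0.42 ± 0.06 in GelMA against Model (adjusted p = 2.6e-04) and by 0.42 ± 0.06 again in PMLGH against GelMA (adjusted p = 0.0010). Groups that do not overlap were common. In PMLGH against Model 6 of the 10 genes were higher without overlap and 1 lower, beside 39.4% of all genes tested (21.1% higher and 18.4% lower). In GelMA against Model 5 were higher and 1 lower, beside 36.6% (19.8% and 16.8%). In PMLGH against GelMA 3 were higher and 2 lower, beside 23.7% (12.3% and 11.4%).

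Epas1 encodes HIF-2 alpha, the related subunit with a strong endothelial expression. Its libraries read 96.9, 81.9 and 87.2 CPM in Model, 117, 132 and 120 CPM in GelMA and 128, 131 and 125 CPM in PMLGH. Both other groups lay above every Model library and overlapped each other. Epas1 rose by 0.53 ± 0.07 in PMLGH against Model (edgeR adjusted p = 5.0e-05) and by 0.47 ± 0.07 in GelMA against Model (adjusted p = 1.8e-04). Between PMLGH and GelMA the difference was 0.05 ± 0.07 (adjusted p = 0.77), with a 95% interval of -0.09 to 0.20.

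The balance of both alpha messages was read within each library as the ratio of Hif1a to Epas1 FPKM. It was 0.908, 1.17 and 0.977 in Model 1, 2 and 5, it was 1.01, 0.898 and 1.02 in GelMA 2, 3 and 4, and 1.19, 1.32 and 1.26 in PMLGH 2, 3 and 4. All PMLGH libraries exceeded all others, Model 2 being the nearest. Exact two-sided permutation tests gave p = 0.1 for PMLGH against Model and against GelMA (adjusted over 3 comparisons 0.15), the smallest that 3 against 3 libraries allow, and p = 0.8 for GelMA against Model.

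Egln1 encodes PHD2, the main hydroxylase that marks HIF alpha for destruction. Its levels were 29.4, 29.6 and 27.7 CPM in Model, 35.4, 32.8 and 30.6 CPM in GelMA and 30.9, 31.6 and 31.1 CPM in PMLGH. Although both other groups lay wholly above Model, neither difference passed: 0.19 ± 0.07 for GelMA (edgeR adjusted p = 0.078) and 0.11 ± 0.07 for PMLGH (adjusted p = 0.28). The GelMA difference passed with library totals alone as the scaling (adjusted p = 0.038) and when limma was run on log2 FPKM with 0.1 or 1 added (0.040 and 0.041). All alternatives together spanned 0.038 to 0.27.

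Egln3 encodes PHD3, a hydroxylase that is itself a HIF target and is abundant in muscle. Model spread widely, with 14.4, 17.8 and 11.5 CPM, while GelMA held 17.7, 16.9 and 18.2 CPM and PMLGH 14.3, 14.3 and 15 CPM. Every PMLGH library lay below every GelMA library, but the difference of -0.28 ± 0.13 did not pass (edgeR adjusted p = 0.31). GelMA against Model gave 0.27 ± 0.13 (adjusted p = 0.14), and without Model 2, the highest Model library, 0.41 (adjusted p = 0.011, where the alternatives spanned 0.011 to 0.52). PMLGH against Model gave 0.00 ± 0.13, with a 95% interval of -0.28 to 0.27.

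Vegfa, the growth factor through which hypoxic tissue calls in vessels, measured 58.7, 53.9 and 57.7 CPM in Model, 62.1, 68.1 and 66.4 CPM in GelMA and 71.4, 66.6 and 68.4 CPM in PMLGH. Model lay below both other groups, which overlapped. The rise in PMLGH against Model was 0.28 ± 0.06 (edgeR adjusted p = 0.0035), a fold of 1.21, and kept its call when any library was left out. In GelMA against Model it was 0.21 ± 0.06 (adjusted p = 0.025), and the call was lost without Model 2, Model 5, GelMA 3 or GelMA 4 (0.14, 0.21, 0.16 and 0.18, adjusted p = 0.11, 0.071, 0.17 and 0.12). Its adjusted p ranged from 0.012 to 0.17 over the alternatives, and it missed the threshold without the low-count filter (0.063) and with only these 2 groups in the fit (0.066). PMLGH and GelMA differed by 0.07 ± 0.06 (adjusted p = 0.64; 95% interval -0.06 to 0.20).

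Adm encodes adrenomedullin, a vasodilator peptide that acts through the receptor CALCRL with a RAMP partner. It was the least counted of the 10 genes, with 119 to 197 counts per library. Levels were 3.83, 3.74 and 3.96 CPM in Model, 5.05, 4.07 and 3.21 CPM in GelMA and 5.32, 4.82 and 5.34 CPM in PMLGH. All PMLGH libraries exceeded Model, yet the difference of 0.42 ± 0.18 did not pass (edgeR adjusted p = 0.099), and its 95% interval of 0.04 to 0.81 leaves the size of the difference poorly known at this depth. GelMA spanned the whole Model range and overlapped PMLGH only at PMLGH 3 (4.82 CPM).

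Ndrg1, a stress-response gene of the N-myc downstream-regulated family and a long-known hypoxia target, had the tightest replicates of the 10 genes in both other groups. Model held 63.8, 70.4 and 65.9 CPM, GelMA 93.9, 94.7 and 94.3 CPM and PMLGH 81.6, 82.4 and 83.2 CPM, so that no groups overlapped and GelMA stood highest. Ndrg1 rose by 0.50 ± 0.05 in GelMA against Model (edgeR adjusted p = 1.5e-05) and by 0.31 ± 0.05 in PMLGH against Model (adjusted p = 7.9e-04). PMLGH against GelMA gave -0.19 ± 0.05, which did not pass (adjusted p = 0.070). It passed under 6 of 20 alternatives, among them DESeq2 (0.025), upper-quartile scaling (0.038) and the fit without Model 2 (0.019), with a range of 0.019 to 0.20.

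Ddit4, also called REDD1, restrains the growth kinase mTORC1 under hypoxia, glucocorticoids and other stresses. Its difference between GelMA and Model was the largest among the 10 genes and 3 comparisons. Libraries read 61, 50.3 and 57.8 CPM in Model, 32.4, 24.8 and 28 CPM in GelMA and 50.1, 42.6 and 41.8 CPM in PMLGH, with no overlap between any groups. Ddit4 fell by 0.99 ± 0.10 in GelMA against Model (edgeR adjusted p = 8.5e-06), a fold of 0.504 with a 95% interval of 0.433 to 0.586. PMLGH lay above GelMA by 0.66 ± 0.10 (adjusted p = 0.0016). It fell by 0.33 ± 0.10 in PMLGH against Model (adjusted p = 0.024), where PMLGH 2 lay just under Model 2. That call was lost without Model 1, Model 5, PMLGH 3 or PMLGH 4 (adjusted p = 0.099, 0.061, 0.098 and 0.10). It was also lost when limma was run on log2 FPKM with 0.1 or 1 added (0.053 and 0.056), and all alternatives together spanned 0.0019 to 0.10.

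Angptl4 encodes a secreted inhibitor of lipoprotein lipase that responds to HIF, to the fatty-acid receptors of the PPAR family and to glucocorticoids. It read 46.3, 35.6 and 41.5 CPM in Model, 33.8, 32.6 and 38.5 CPM in GelMA and 57, 51.8 and 46.1 CPM in PMLGH. PMLGH lay above GelMA throughout, and Model 1 overlapped PMLGH 4. PMLGH exceeded GelMA by 0.56 ± 0.10 (edgeR adjusted p = 0.0046), a fold of 1.48 with a 95% interval of 1.27 to 1.71. Against Model it rose by 0.33 ± 0.10 (adjusted p = 0.024), and without Model 2, the lowest Model library, the difference was 0.20 and did not pass (adjusted p = 0.10). The call was also lost without Model 5, PMLGH 2 or PMLGH 3 (adjusted p = 0.074, 0.14 and 0.070) and with limma on log2 FPKM with 1 added (0.050), where the alternatives spanned 0.010 to 0.14. GelMA against Model gave -0.23 ± 0.10 (adjusted p = 0.11), and -0.36 without Model 2 (adjusted p = 0.0066, the alternatives spanning 0.0066 to 0.41).

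Bnip3, a mitochondrial protein that starts mitophagy in hypoxic cells, ranged from 19.9 to 25.6 CPM in Model, from 24.7 to 26 CPM in GelMA and from 21.5 to 27.1 CPM in PMLGH. All groups overlapped. The differences were 0.06 ± 0.10 for PMLGH against Model (95% interval -0.16 to 0.28), 0.16 ± 0.10 for GelMA against Model and -0.10 ± 0.10 for PMLGH against GelMA (edgeR adjusted p = 0.71, 0.31 and 0.73).

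**Figure D2:**
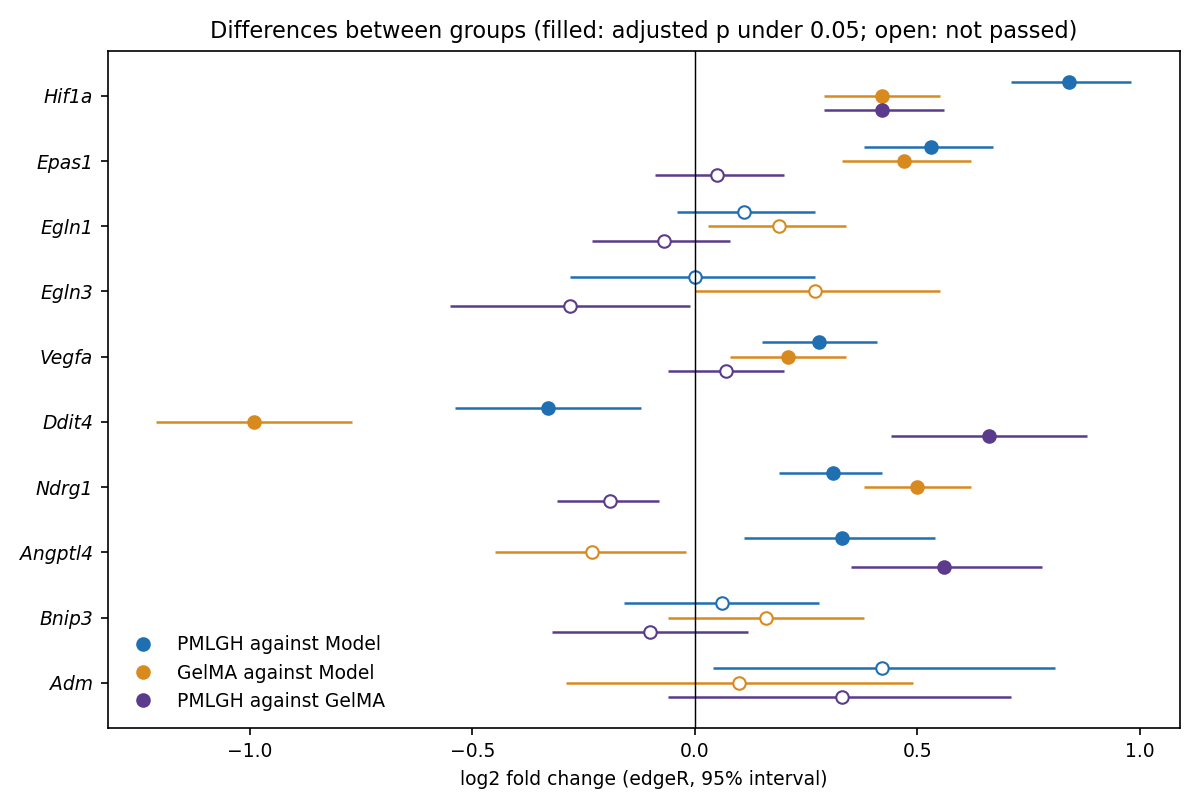
Log2 fold changes of the 10 genes (horizontal axis) with approximate 95% intervals in the 3 comparisons, filled where the adjusted p was under 0.05. Hif1a is filled in all 3, Epas1, Vegfa and Ndrg1 only against Model, and Ddit4 lies at -0.99 in GelMA against Model and at 0.66 in PMLGH against GelMA.

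Few other parts of the oxygen-sensing machinery passed. The counts of this list and of those below stand beside 15.7% of all genes tested higher and 11.9% lower in PMLGH against Model. These shares were 12.7% and 9.88% in GelMA against Model, and 1.8% and 1.64% in PMLGH against GelMA. Of 19 further genes (partners of the alpha subunits, the VHL complex, coactivators and regulators), 1 rose and 1 fell in PMLGH against Model, and 1 rose and 2 fell in GelMA against Model. Their medians were -0.07 and -0.05, beside 0.02 and 0.03 for all genes. In PMLGH against GelMA none passed in edgeR or in DESeq2, and none had an unadjusted p under 0.05. Without Model 2, 2 rose and 4 fell in each comparison with Model. Vhl, which recognises hydroxylated HIF alpha, rose by 0.33 ± 0.09 in PMLGH and by 0.28 ± 0.09 in GelMA (edgeR adjusted p = 0.010 and 0.030). Rack1, a ribosomal scaffold that also promotes oxygen-independent loss of HIF1A, fell by 0.24 ± 0.06 and 0.31 ± 0.06 (adjusted p = 0.0062 and 0.0014). Hif1an, the asparaginyl hydroxylase that blocks coactivator binding, fell by 0.23 ± 0.07 in GelMA (adjusted p = 0.030), and PMLGH gave -0.20 ± 0.07 (0.056). Arnt, the partner of both subunits, is named outside the rule and after its values were seen: it held 79.2, 75.7 and 76.4 CPM in Model, GelMA and PMLGH.

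Among 23 glycolytic hypoxia targets, 7 rose and 1 (Hk1, named after its value was seen) fell in PMLGH against Model (median 0.17). In GelMA against Model 8 rose and 1 fell (median 0.21), and in PMLGH against GelMA 1 rose and 1 fell (median 0.04). Without Model 2 more of them passed, as did more of all genes. Of the list, 12 were then higher and 1 lower in PMLGH and 14 higher and 2 lower in GelMA against Model, at medians of 0.23 and 0.19. Slc2a1, the glucose transporter GLUT1, went from 7 CPM in Model to 14.8 in GelMA and 18.9 in PMLGH, a rise of 1.08 ± 0.12 and 1.43 ± 0.12 (edgeR adjusted p = 1.3e-05 and 4.5e-07). The lactate exporter Slc16a3 rose by 0.56 ± 0.09 and 0.67 ± 0.09 (adjusted p = 6.4e-04 and 1.0e-04), and the enolase Eno2 by 0.58 ± 0.12 and 0.92 ± 0.12 (0.0035 and 6.4e-05). Aldoa, the aldolase of muscle, rose by 0.43 ± 0.06 in GelMA against Model (adjusted p = 1.4e-04), as did Gapdh by 0.28 ± 0.06 (0.0042). Aldoa fell by 0.33 ± 0.06 in PMLGH against GelMA (0.0054). Pfkfb3, which makes an activator of glycolysis, was lowest in GelMA like Ddit4, with 86.4, 67.5 and 93.3 CPM in Model, GelMA and PMLGH. It fell by 0.36 ± 0.06 in GelMA against Model (adjusted p = 5.1e-04) and rose by 0.47 ± 0.06 in PMLGH against GelMA (2.4e-04).

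Of 35 other hypoxia targets tested, 17 rose and 2 fell in PMLGH against Model (median 0.28), and 11 rose and 2 fell in GelMA against Model (median 0.14). In these comparisons P4ha1, a collagen prolyl hydroxylase subunit, rose by 0.63 ± 0.07 and 0.52 ± 0.07 (edgeR adjusted p = 1.4e-05 and 1.1e-04), and the lysyl hydroxylase Plod2 by 0.69 ± 0.05 and 0.64 ± 0.05 (3.5e-07 and 1.1e-06). Bhlhe40, a repressor induced by hypoxia and cytokines, rose by 0.89 ± 0.09 and 0.82 ± 0.09 (4.1e-06 and 1.3e-05). In PMLGH against GelMA 3 rose and none fell, among them Lox by 0.40 ± 0.07 and the lipid-droplet coat gene Plin2 by 0.62 ± 0.06 (adjusted p = 0.0068 and 5.6e-05). At an unadjusted p under 0.05, for which no share of all genes is given, 8 were higher and 2 lower there. DESeq2 called 4 higher and 0 lower. Without Model 2, 17 rose and 3 fell in PMLGH against Model, 12 rose and 4 fell in GelMA against Model, and 4 rose and 1 fell in PMLGH against GelMA. The genes that fell in PMLGH were Bnip3l and Tfrc, which red cell precursors express strongly, and those in GelMA were Bnip3l and Hmox1. All 15 erythroid markers, of which Tfrc itself is 1, were lower in PMLGH against Model. In GelMA against Model 14 of the 15 markers were lower, and 15 without Model 2. They took 10.2% to 11.1% of the counts in Model, 7.89% to 8.74% in GelMA and 7.59% to 8.84% in PMLGH, and the part of this in Bnip3l, Tfrc and Hmox1 was not tested. Between PMLGH and GelMA no erythroid marker passed in edgeR or DESeq2, and 0 had an unadjusted p under 0.05. Beside P4ha1, Plod2 and Lox, 13 of 14 bone and connective tissue markers rose in PMLGH against Model (median 0.79). In GelMA against Model 14 of 14 rose (median 0.81), and in PMLGH against GelMA 3 rose and 1 fell (median 0.16). Without Model 2, 12 of these markers rose in PMLGH and 13 in GelMA against Model. In PMLGH against GelMA 4 then rose and 2 fell. The part of these markers in the rises of the hypoxia targets was not tested.

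**Figure D3:**
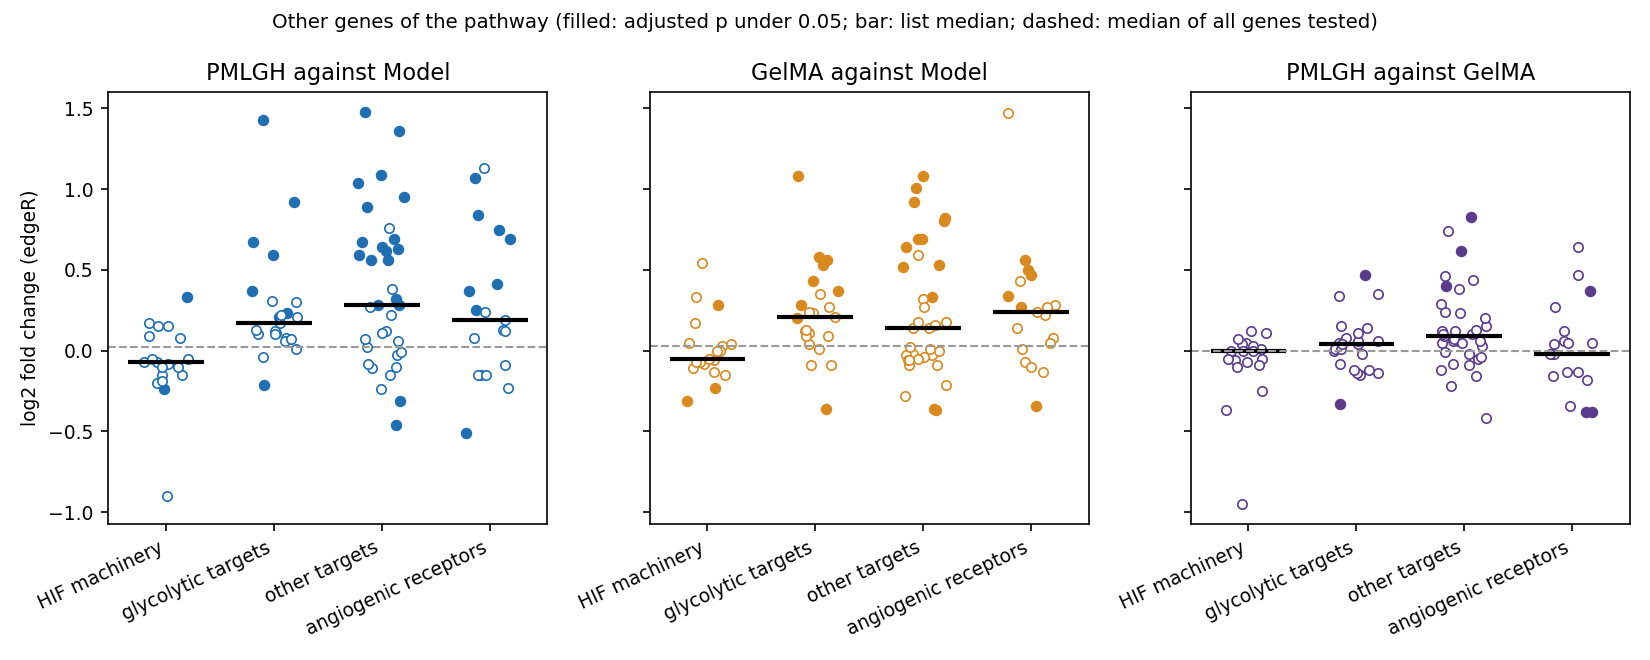
Log2 fold changes of the other genes of the pathway (vertical axis) in 4 lists and 3 comparisons, with points for genes, filled where the adjusted p was under 0.05, black bars for list medians and a dashed line for the median of all genes tested. In PMLGH against Model the list medians are -0.07 for the machinery, 0.17 for glycolytic targets, 0.28 for the other targets and 0.19 for angiogenic receptors and partners.

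Receptors and partners of Vegfa, Adm and other angiogenic ligands were read beside them. Of 19 angiogenic receptors and partners, 7 rose and 1 fell in PMLGH against Model, and 5 rose and 1 fell in GelMA against Model (medians 0.19 and 0.24), and 1 rose and 2 fell in PMLGH against GelMA (median -0.02). Without Model 2, 7 rose and 2 fell, 6 rose and 1 fell, and 3 rose and 2 fell in these comparisons. The VEGF co-receptor Nrp2 rose by 0.84 ± 0.07 in PMLGH against Model and by 0.37 ± 0.07 in PMLGH against GelMA (edgeR adjusted p = 3.4e-07 and 0.0042). Flt1, a VEGF receptor that is itself a HIF target, rose by 0.69 ± 0.08 in PMLGH and 0.56 ± 0.08 in GelMA (adjusted p = 2.7e-05 and 2.2e-04). The co-receptor Nrp1 rose by 0.41 ± 0.05 and 0.34 ± 0.05, and Angpt2, a vessel-destabilising ligand, by 0.37 ± 0.10 and 0.50 ± 0.10 (adjusted p of Angpt2 = 0.014 and 0.0024). The apelin receptor Aplnr rose by 1.07 ± 0.19 in PMLGH (8.4e-04). Ramp1, a partner of CALCRL in the receptor for calcitonin gene-related peptide, fell by 0.51 ± 0.10 and 0.34 ± 0.10 (0.0012 and 0.021). Ramp2 and Ramp3, the partners that make CALCRL an adrenomedullin receptor, are named after their values were seen: both were lower in PMLGH than in GelMA, by -0.38 ± 0.10 and -0.38 ± 0.09 (adjusted p = 0.043 and 0.032). Endothelial markers moved beside these genes and beside Epas1. Of 12 tested, 8 rose in PMLGH and 8 in GelMA against Model, and their mean log2 CPM was 4.32 to 4.46 in Model, 4.63 to 4.73 in GelMA and 4.69 to 4.77 in PMLGH, with none at 0. Without Model 2, 6 rose in PMLGH and 5 in GelMA against Model. Between PMLGH and GelMA none passed in edgeR or DESeq2, and 3 were higher at an unadjusted p under 0.05. In bulk tissue more cells of a type and more RNA per cell cannot be told apart, and the part of the endothelial markers in the Epas1 result was not tested.

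Macrophage markers were read beside Hif1a. Of 12 tested, 9 rose in PMLGH against Model, and 5 rose and 1 fell in GelMA against Model. In PMLGH against GelMA 6 rose. Adgre1, which encodes the macrophage antigen F4/80, stood at 34.5, 47.7 and 74.2 CPM in Model, GelMA and PMLGH. Not all markers kept this order: Cd163 stood at 210, 196 and 179 CPM. C1qc, the 1 that fell in GelMA, stood at 183, 160 and 206 CPM. The mean log2 CPM of the macrophage markers was 5.30 to 5.56 in Model, 5.55 to 5.70 in GelMA and 5.86 to 5.92 in PMLGH. Model 2 was highest in its group for this list and for Hif1a, and also for the neutrophil markers and the glycolytic targets. Marco, left out by the filter, was the only marker at 0 in a group. Without Model 2, 9 macrophage markers were higher in PMLGH against Model, 6 higher and 1 lower in GelMA against Model, and 7 higher in PMLGH against GelMA. Neutrophil markers overlapped more, with 3 of 11 higher in PMLGH and 1 in GelMA against Model, 1 of 11 higher in PMLGH against GelMA, and a mean log2 CPM of 8.79 to 9.27, 8.98 to 9.14 and 9.06 to 9.42. Without Model 2, 9 of the 11 neutrophil markers were higher in PMLGH and 3 in GelMA against Model, and 2 in PMLGH against GelMA. Of all genes tested, 15.7% were higher in PMLGH and 12.7% in GelMA against Model, and 1.8% in PMLGH against GelMA. The part of both marker lists in the Hif1a result was not tested.

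Skeletal muscle markers were highest in GelMA. The means of Ndrg1, Egln1, Egln3 and Bnip3 were also highest there, of which Ndrg1 alone passed against Model. All 14 markers rose in GelMA against Model (median 2.10), 13 of 14 in PMLGH against Model (median 0.68), and 12 of 14 fell in PMLGH against GelMA (median -1.37). Without Model 2, 13 of the 14 markers fell in PMLGH against GelMA. They took 0.0685% to 0.0917% of the counts in Model, 0.315% to 0.399% in GelMA and 0.108% to 0.145% in PMLGH, and none was at 0. Their part in the levels of these genes and of Aldoa was not tested.

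**Figure D4:**
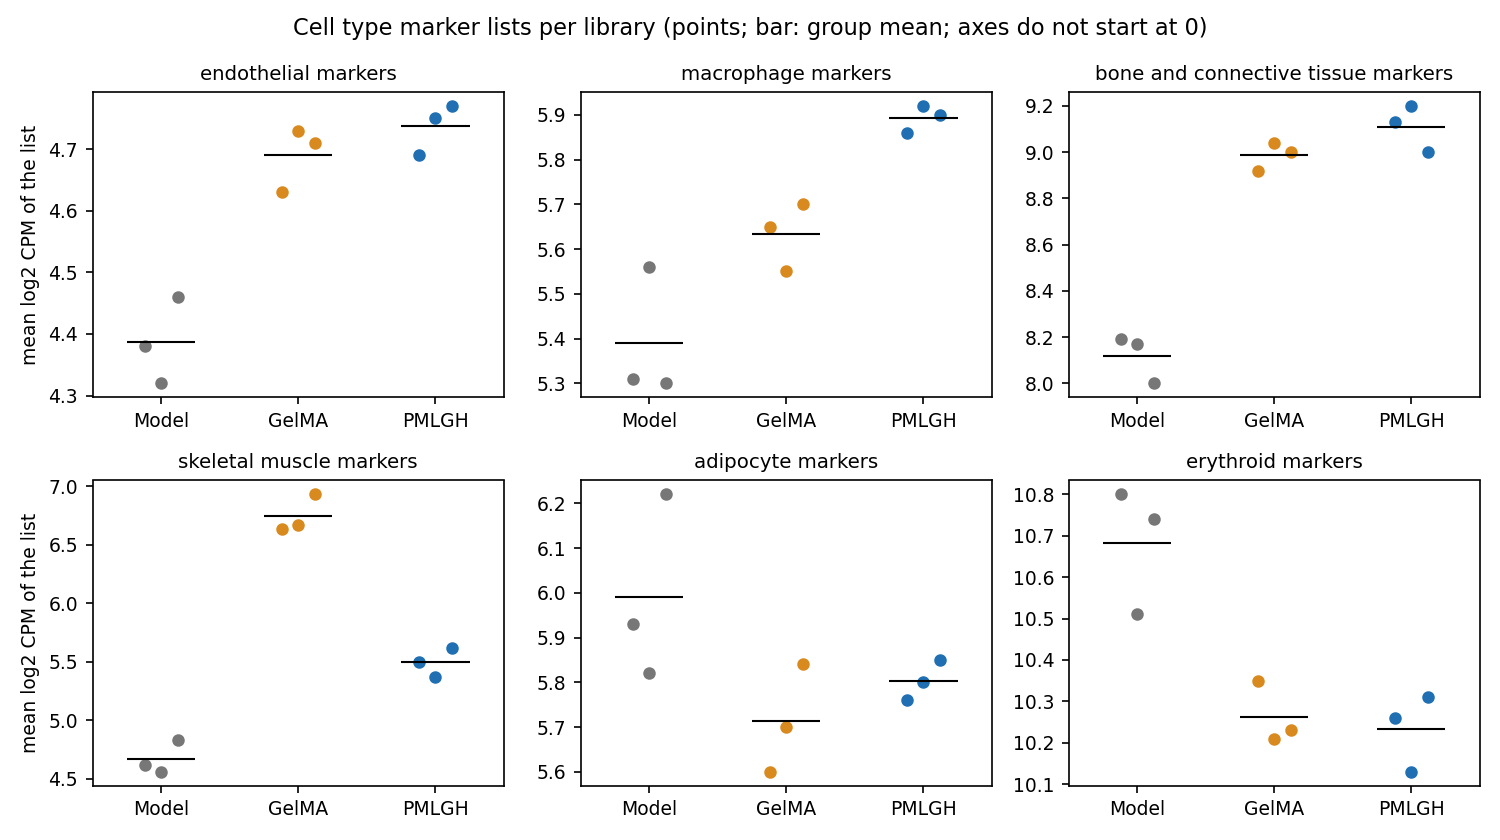
Mean log2 CPM of 6 cell type marker lists per library (vertical axes, which do not start at 0) by group, with points for libraries and bars for group means. Macrophage markers are highest in PMLGH (5.86 to 5.92), muscle markers in GelMA (6.63 to 6.93), and erythroid markers in Model (10.51 to 10.80).

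Ddit4 and Angptl4 answer to several inputs, so genes of those inputs were read beside them. Of 11 glucocorticoid-responsive genes, 3 rose and 0 fell in PMLGH against Model (1 lower at an unadjusted p under 0.05 and 1 in DESeq2), 3 rose and 3 fell in GelMA against Model, and 4 rose and 3 fell in PMLGH against GelMA. Without Model 2, 2 fell in PMLGH and 4 in GelMA against Model. Of all genes tested, 15.7% rose and 11.9% fell in PMLGH against Model, and 12.7% and 9.88% in GelMA against Model. In PMLGH against GelMA 1.8% rose and 1.64% fell. Per1, a clock gene induced by glucocorticoids, and Tsc22d3, which encodes the glucocorticoid-induced leucine zipper, were lowest in GelMA, like Ddit4. They fell by 0.95 ± 0.12 and 0.51 ± 0.07 in GelMA against Model (edgeR adjusted p = 7.4e-05 and 1.2e-04) and rose by 0.80 ± 0.12 and 0.39 ± 0.07 in PMLGH against GelMA (0.0014 and 0.0048). Zbtb16 and Pdk4 went the opposite way, with 0.65 ± 0.11 and 0.73 ± 0.10 in GelMA against Model (5.0e-04 and 1.2e-04). In PMLGH against GelMA they gave -0.81 ± 0.11 and -0.58 ± 0.10 (3.6e-04 and 0.0034). Fkbp5, named after its value was seen, was also highest in GelMA, with -0.26 ± 0.05 in PMLGH against GelMA (0.011).

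The integrated stress response also reaches Ddit4, through ATF4. Of 12 of its genes, 4 fell in each comparison with Model (Asns, Ppp1r15a, Atf4 and Ddit3), and 3 rose in PMLGH and 1 in GelMA. The 1 in GelMA was Vldlr, which also stands among the other hypoxia targets. Without Model 2, 1 rose and 4 fell in PMLGH, and 0 rose and 6 fell in GelMA. Asns, the asparagine synthetase, fell by 0.65 ± 0.09 in PMLGH and by 0.70 ± 0.09 in GelMA (edgeR adjusted p = 1.2e-04 and 8.7e-05). Between PMLGH and GelMA none passed in edgeR or DESeq2, and 1 was higher at an unadjusted p under 0.05. Of 13 PPAR targets, 1 rose and 2 fell in PMLGH against Model, 3 rose and 3 fell in GelMA against Model, and 3 rose and 2 fell in PMLGH against GelMA: Plin2, Fabp4 and Cpt1a were higher, as Angptl4 was, and Pdk4 and Ucp3 lower. The calls of Fabp4 and Cpt1a rest on the scaling, since their edgeR adjusted p of 0.044 and 0.042 became 0.052 and 0.050 under RLE scaling and 0.076 and 0.074 under upper-quartile scaling, past the threshold. Without Model 2, 1 PPAR target rose and 4 fell in PMLGH against Model, and 2 rose and 6 fell in GelMA against Model. In PMLGH against GelMA 4 then rose and 2 fell. Fat cells express Angptl4, and of 12 adipocyte markers 6 fell in GelMA and 3 in PMLGH against Model, while Fabp4 was the 1 higher in PMLGH against GelMA, a call lost under both scalings. Without Model 2, 8 of these markers fell in GelMA and 5 in PMLGH against Model, and 1 in PMLGH against GelMA. Their mean log2 CPM was 5.82 to 6.22 in Model, 5.6 to 5.84 in GelMA and 5.76 to 5.85 in PMLGH, none was at 0, and their part in the Angptl4 result was not tested.

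The genes closest in pattern to 3 members were sought among 11492 others with a mean of at least 5 CPM, by the root mean square difference of centred log2 CPM over the 9 libraries. For Hif1a these were Fscn1, Nampt, Ctsc, Nid1 and Nrp2, with differences of 0.0571 to 0.0666. Fscn1, an actin-bundling protein, differed by 0.80 in PMLGH and 0.41 in GelMA against Model. For Epas1 they were Scara3, Meis3, Ccbe1, Arhgef17 and Spon2 (0.0450 to 0.0672), whose differences between PMLGH and GelMA lay between -0.01 and 0.09. For Vegfa they included Armcx3, Adgra2, Arfip1 and Gnai1 (0.0324 to 0.0457). Between members the closest pair was Egln1 and Vegfa at 0.118, followed by Vegfa and Bnip3 at 0.131, while Hif1a and Epas1 lay 0.192 apart. Levels were centred but not scaled, so genes that move little can lie close even where their shapes differ. Egln1 had its highest mean in GelMA and Vegfa in PMLGH.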

How the data were processed

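Raw counts per gene symbol, as deposited by the authors, were tested, and the deposited FPKM, which the authors computed per library, served for levels between genes and for 2 alternatives. In all 22798 genes with counts, FPKM could be rebuilt from the count, the total of its library and 1 fixed length for the gene (tolerance 1e-04), so it adds no measurement. The submitters' processing notes name DESeq2 and R 3.2.0. Aligner, counter, build, annotation and strandedness were not given in the sources used here. Reads of overlapping antisense genes may be mixed.

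Low genes were removed with filterByExpr of edgeR 4.0.16 (R 4.3.3), libraries were scaled by TMM, and the model held a mean for each group over all 9 libraries (6 residual degrees of freedom, common biological coefficient of variation 10.1%). SE is the size of a log2 fold change over the square root of its F statistic. Tests were two-sided. Alternatives used DESeq2 1.42.0 and limma 3.58.1. Replicates were compared for duplicates: the chi-square between any pair averaged 7.56 or more over genes whose mean count reached 50, above sampling noise.

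The 10 genes, the lists and the markers were chosen with earlier results of these data known. Named are all 10 genes, up to 6 passing genes per pathway list in order of p, up to 4 markers per list, and the 5 nearest patterns to Hif1a, Epas1 and Vegfa. Some genes that this rule picks are not reported here. Lists were described by counts and medians only. Tfrc, Vldlr, Plin2, Fabp4, Pdk4 and Pgf are each shared between lists.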

Additional observations from a re-analysis of the deposited data

How the results depend on the processing

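Over 19 alternatives (20 for PMLGH against GelMA), the differences of Hif1a kept their direction and their side of the threshold, as did Epas1, and Ddit4 except in PMLGH against Model. Differences that had not passed changed sign under some alternatives for Egln3 and Bnip3 in PMLGH against Model and for Adm in GelMA against Model. Of the 10 genes, the number lower in PMLGH against Model (1) was 0 with limma on log2 FPKM and 0 to 1 with a library left out. The number lower in GelMA against Model (1) was 2 without the low-count filter and 1 to 2 with a library left out. In PMLGH against GelMA it was 0, and 1 (Ndrg1) with upper-quartile scaling, library totals, only these 2 groups, DESeq2 or the replicate block, and 0 to 1 with a library left out. Of all genes, 1268 to 2795 were lower in PMLGH against Model with a library left out (main 1994), fewest without PMLGH 3. In GelMA against Model 1661 were lower, 1103 and 1107 with limma on log2 FPKM with 0.1 and 1 added, and 1035 to 2468 with a library left out (1035 and 1088 without Model 1 and Model 5). In PMLGH against GelMA 303 were higher and 275 lower. The number higher was 455 without the filter, 590 with only these 2 groups, 491 in DESeq2, 168 and 185 with limma on log2 FPKM, and 143 to 586 with a library left out (143 without PMLGH 3, 173 to 200 without GelMA 2, GelMA 3, GelMA 4 or PMLGH 2, and 586 without Model 2). The number lower was 469 with only these groups, 423 in DESeq2 and 144 to 464 with a library left out (144 to 173 without GelMA 3, GelMA 4 or any PMLGH library, and 464 without Model 2). Under RLE and upper-quartile scaling, list counts moved by over 1.5 times as follows. In PMLGH against Model, 2 and 3 machinery genes instead of 1, 2 angiogenic genes instead of 1, 1 macrophage marker instead of 0 and 1 glucocorticoid-responsive gene instead of 0 were lower. GelMA against Model gave 1 lower neutrophil marker instead of 0 and, under RLE, 5 lower PPAR targets instead of 3. PMLGH against GelMA gave 0 higher adipocyte markers instead of 1 and 1 higher PPAR target instead of 3. The cause was not tested. With the replicate block, 578 were higher and 460 lower, against 590 and 469 in the same 6 libraries without it. Same-numbered GelMA and PMLGH libraries did not deviate together (correlations -0.021 to 0.044 over 16816 genes), and GelMA 2 correlated best with PMLGH 4, so the numbers were not taken as pairs, and Model shares too few numbers for a block. The FPKM ratio of Ndrg1 in PMLGH to GelMA was 0.859. At 119 to 197 counts, Adm was the least precise of the 10 genes.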

Other observations

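Because Per1 took the shape of Ddit4, 14 circadian clock genes were read after those values were seen, as levels with no test. In PMLGH against Model 4 were higher without overlap (Arntl, Clock, Nr1d2 and Tef), Per3 was lower and 9 overlapped, beside 39.4% of all genes tested whose groups did not overlap. In GelMA against Model 11 overlapped, where 36.6% of all genes did not: Per1 was lower (29.9 to 40.9 CPM in GelMA, 54.1 to 76.1 in Model), and Arntl and Nr1d2 were higher. Per2, Dbp and Nr1d1, other rhythmic outputs, overlapped in every comparison, with means of 24.6, 26.3 and 25.6 CPM for Per2 in Model, GelMA and PMLGH. In PMLGH against GelMA 3 were higher without overlap (Clock, Per1 and Tef) and Ciart was lower, beside 12.3% of all genes tested that were higher without overlap and 11.4% that were lower. Arntl, the partner of CLOCK, stood at 6.25 ± 0.49 CPM in Model, 8.92 ± 0.81 in GelMA and 10.1 ± 0.68 in PMLGH (SD, n = 3). The hour of sampling is not given in the sources used here.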
